A study of Mus musculus with 6 samples.

Results

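The Krüppel-like factors are zinc finger transcription factors that bind GC-rich and CACCC-type DNA. Values of 10 family members, Klf2, Klf3, Klf4, Klf6, Klf7, Klf9, Klf10, Klf11, Klf13 and Klf16, were taken by gene symbol from a table of 19233 genes, and all 10 were found in it. The RNA was polysome-bound, that is, mRNA loaded with several ribosomes at once, and came from RAW264.7 cells, a virus-transformed mouse line that resembles macrophages. The comparison asked how BMH-21, a small-molecule inhibitor of RNA polymerase I, changed polysome-bound mRNA. Of 6 libraries, 3 came from cells given 500 nM BMH-21 for 24 h, starting 24 h after polarization, and 3 from cells given the solvent DMSO. Both groups are titled M2, the alternatively activated state. The treatment text of the labels describes bone-marrow-derived macrophages with IL-4 at 20 ng/ml or with interferon gamma and LPS, so the agent that polarized the cell line is not stated. All libraries come from 1 cell line, and the labels do not say whether the replicates were separate cultures. The RNA of DMSO replicate 2 is labelled polyA and that of the other 5 libraries total, although 1 protocol with poly(A) selection is given for all. A polysome-bound level depends on the amount of an mRNA and on its ribosome loading, and these cannot be told apart here. Nor can fewer cells of a type and less RNA per cell be told apart in such bulk samples.

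Members of the family share similar DNA-binding fingers at the C-terminus and differ in the N-terminal part, which recruits partners. KLF2, KLF4, KLF6 and KLF7 belong to a group that binds acetyltransferases such as p300, KLF3 and KLF8 recruit the corepressor CtBP, and KLF9, KLF10, KLF11, KLF13 and KLF16 recruit Sin3. In mouse macrophages KLF4 is induced by IL-4 through STAT6 and promotes the M2 state, KLF2 restrains inflammatory activation, and KLF6 is known to favour it.

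The start regions of Klf4 and Klf2, which had the lowest changes of the 10 members on the log2(FPKM + 1) scale, are shown beside those of Klf6 and Klf9, which had the highest and did not pass the test. RefSeq windows (GRCm38.p6) matched 8 of the 10 members. Each sequence runs 5′ to 3′ towards the gene and ends before the outermost annotated transcript start. Capitals mark the GC box GGGCGG and the CACCC box CACCC on either strand, the kinds of letters that Krüppel-like and SP factors bind. Klf4 is taken from chr4:55532476-55532725 (minus strand), Klf2 from chr8:72318812-72319032 (plus strand), Klf6 from chr13:5861239-5861481 (plus strand) and Klf9 from chr19:23140976-23141225 (plus strand).
Klf4: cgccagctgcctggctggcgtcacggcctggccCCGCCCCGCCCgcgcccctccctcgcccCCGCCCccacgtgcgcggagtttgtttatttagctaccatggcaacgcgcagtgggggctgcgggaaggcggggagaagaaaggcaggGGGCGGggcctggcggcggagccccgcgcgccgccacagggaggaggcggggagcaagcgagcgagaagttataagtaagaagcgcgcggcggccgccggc
Klf2: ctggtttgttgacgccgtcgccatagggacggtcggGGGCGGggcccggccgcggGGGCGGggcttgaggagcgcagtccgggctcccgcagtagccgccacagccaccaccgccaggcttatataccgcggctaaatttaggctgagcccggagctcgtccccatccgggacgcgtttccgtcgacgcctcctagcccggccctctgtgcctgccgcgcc
Klf6: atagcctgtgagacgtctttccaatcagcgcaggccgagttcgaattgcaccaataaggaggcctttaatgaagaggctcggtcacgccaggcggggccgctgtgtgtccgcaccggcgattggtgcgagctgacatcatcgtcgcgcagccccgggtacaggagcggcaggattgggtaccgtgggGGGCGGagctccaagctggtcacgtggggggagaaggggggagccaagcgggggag
Klf9: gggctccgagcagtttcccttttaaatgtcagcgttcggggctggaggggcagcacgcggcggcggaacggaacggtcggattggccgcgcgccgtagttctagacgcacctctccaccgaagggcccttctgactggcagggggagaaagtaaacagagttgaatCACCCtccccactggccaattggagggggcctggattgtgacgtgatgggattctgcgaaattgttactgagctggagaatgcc

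Klf4 had 4 GC boxes in its stretch, Klf2 had 2, Klf6 had 1 and Klf9 had none, and 2 of those of Klf4 share a base. The Klf9 stretch held 1 CACCC box and the other 3 stretches none. The full 250-base window of Klf2, longer than its stretch, held 1 CACCC box. In the windows of the matched members not shown, Klf3 had 6 GC boxes and 5 CACCC boxes. Klf11 had 4 and none, Klf13 had 3 and 1, and Klf7 had 1 and 3. In the 250 bases before the RefSeq start, a GC box was found in 59.2% of the windows of tested genes and a CACCC box in 56.8%. The letters TATAA, on either strand, were found in these windows in front of Klf2 and Klf4 (2 matches each, overlapping in Klf4). They were found in front of none of the other 6 matched members, against 11.7% of the windows of tested genes. Of the 2 matches of Klf2, 1 lies past the end of its printed stretch. Klf2 and Klf4 were picked by their changes, and a link of these letters to the changes was not tested. The letters CCAAT, on either strand, were found in front of Klf6, Klf9, Klf11 and Klf13, against 35.8% of the windows of tested genes. A match to the MEF2 consensus, ctaaatttag, began 118 bases before the RefSeq start of Klf2. Such a match was found in 1.33% of the windows of tested genes and in none of the other 7 members. These are matches of letters and show no binding.

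Values are FPKM, fragment counts scaled to exon length and library depth, as deposited. Low values moved in steps that imply 18780000 to 22570000 reads in the BMH-21 libraries and 21620000 to 24080000 in the DMSO libraries. Libraries of 1 group correlated at 0.997 or more across genes and libraries of different groups at 0.9627 to 0.964. Macrophage markers were present in both groups. Cd14, the LPS co-receptor, averaged 537 ± 6.603 FPKM with BMH-21 and 359 ± 1.197 FPKM with DMSO, and Adgre1, which encodes F4/80, averaged 22.7 ± 0.518 FPKM with BMH-21 and 40.7 ± 1.33 FPKM with DMSO (SD, n = 3 each). Arg1, the arginase of M2 cells, was low in both groups, at 0.692 ± 0.0444 FPKM with BMH-21 and 4.29 ± 0.147 FPKM with DMSO. Of the macrophage markers 9 were tested, and 5 were higher and 4 lower with BMH-21, beside 19.9% and 58.4% of all tested genes. Under median-ratio scaling 5 were higher and 2 lower, against 38.2% and 35.3% of all tested genes. Under quantile normalization 3 were higher and 3 lower, against 36.1% and 35.9%. Quantile normalization set the lysozyme gene Lyz2 to 0.0, which it does by construction to a gene of the same rank in every library. The 4 tested polarization markers, Arg1 among them, were all lower, and only Arg1 was lower under median-ratio scaling. Arg1 passed the filter on low values through its DMSO libraries alone. Of 16 markers of other cell types listed, 7 were in the table and only Krt8 and Krt18 passed the filter on low values. The epithelial keratin gene Krt18 had 8.89, 6.41 and 8.09 FPKM in the BMH-21 libraries, against 0, 0.0644 and 5.47 FPKM in DMSO replicates 1, 2 and 3. Krt8 had 4.22, 3.60 and 3.78 FPKM with BMH-21, against 0, 0.0236 and 3.27 FPKM in DMSO replicates 1, 2 and 3. The 7 markers summed to 10.8 to 13.9 FPKM in the BMH-21 libraries and 0.175 to 9.51 FPKM in the DMSO libraries, so DMSO replicates 1 and 2 stand apart from the other 4 libraries. Calls on members are therefore also given with DMSO replicate 3 alone, where that library is assumed to vary like the BMH-21 libraries, and without it.

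Of the 10 members, 7 fell with BMH-21, none rose and 3 did not pass limma's test with Benjamini-Hochberg adjustment at 0.05 over all 9748 tested genes. Lower calls made up 58.4% of all tested genes and higher calls 19.9%, together 78.3%, so a count of 7 of 10 is near that background. The groups did not overlap in the same 7 members, all lower with BMH-21, against 59.5% of tested genes lower and 20.3% higher without overlap, together 79.8%. All 10 members passed the filter of at least 1 FPKM in at least 3 libraries, and Klf11 passed it through its DMSO libraries. The median change of the 10 was −0.52 on the log2(FPKM + 1) scale, against −0.23 for all tested genes. The sizes differed widely. On the log2(FPKM + 1) scale, which understates changes in low genes, Klf4 had the 22nd lowest change of 9748 genes and Klf2 the 167th. On it Klf3, Klf6, Klf7, Klf9 and Klf16 had 36.65% to 73.54% of tested genes below them. The 7 falls were also called with DMSO replicate 3 alone, and without DMSO replicate 3, and in each other fit that left out 1 library.

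Because the median of all genes was below 0, the scaling sets which small changes are called. With the values as deposited 1938 genes were higher and 5690 lower, against 3724 and 3442 with median-ratio scaling, which moved the all-gene median by 0.24 on the log2 scale. Under median-ratio, upper-quartile and quantile scaling 3 members, Klf6, Klf9 and Klf16, were called higher, where 38.2%, 34.4% and 36.1% of tested genes were. Lower calls covered 7 members under median-ratio scaling (35.3% of tested genes), 7 under upper-quartile scaling (39.8%) and 5 under quantile normalization (35.9%), where Klf3 and Klf7 were no longer called. With column totals made equal 9 members were lower, Klf6 and Klf16 among them, as were 67.9% of tested genes, and none was higher (14.2%). Klf2, Klf4, Klf10, Klf11 and Klf13 were called lower under each of these scalings. The plot of values by library shows the deposited levels, and the plot of changes under 4 scalings shows how each member moves with them.

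**Figure D1:**
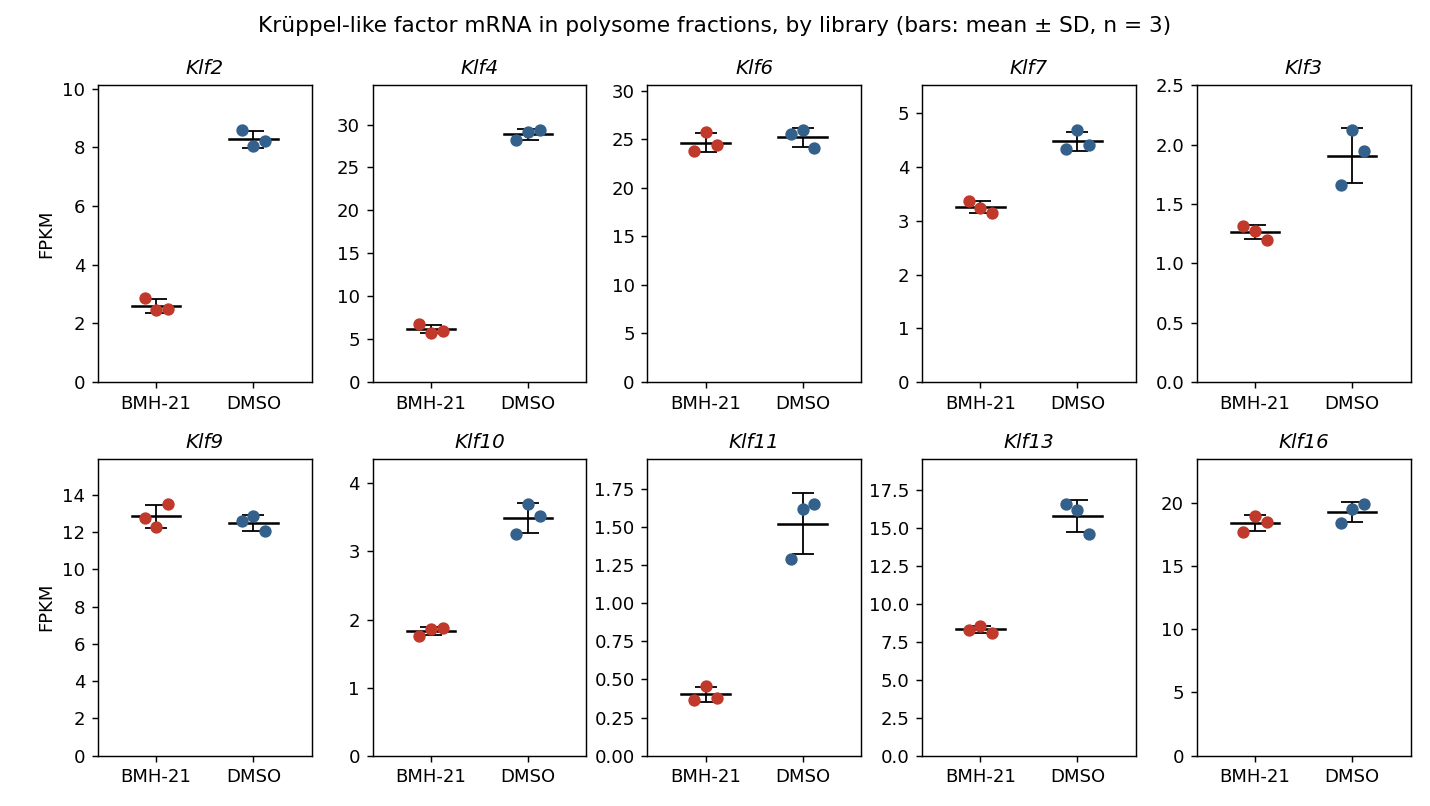
FPKM of each Krüppel-like factor in every library, on axes that start at 0, with 3 BMH-21 libraries left and 3 DMSO libraries right, and bars for mean ± SD. The groups do not overlap in Klf2, Klf4, Klf7, Klf3, Klf10, Klf11 and Klf13, with Klf4 at 5.76 to 6.71 FPKM with BMH-21 and 28.2 to 29.3 FPKM with DMSO, and they overlap in Klf6, Klf9 and Klf16.

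**Figure D2:**
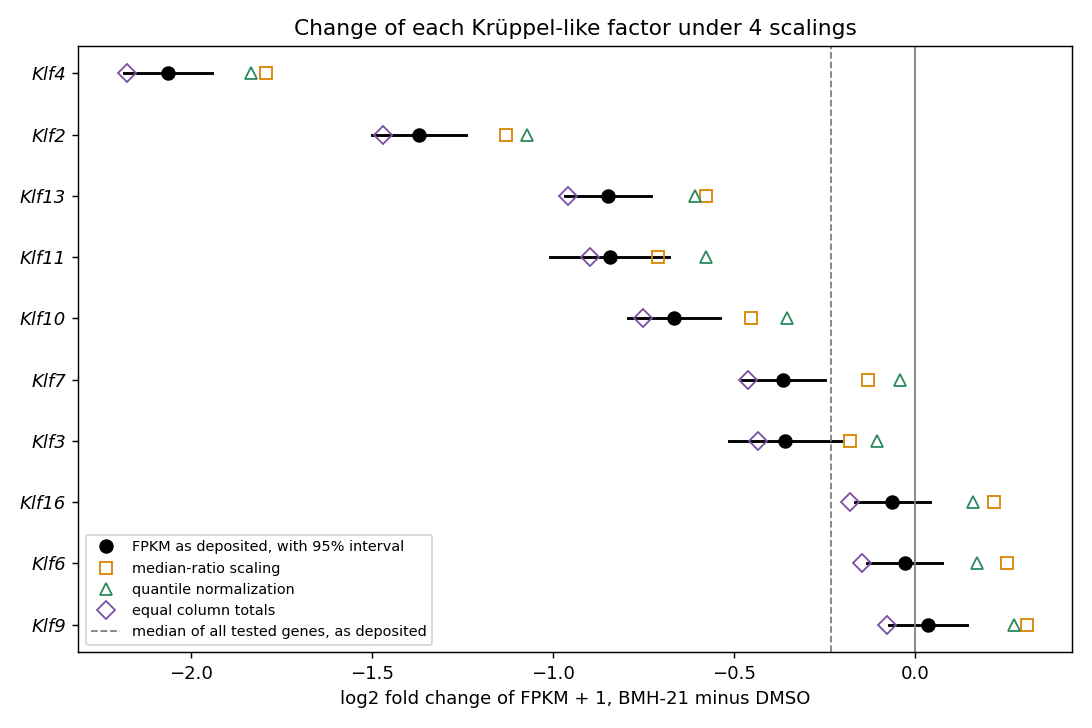
log2 fold change (BMH-21 minus DMSO, FPKM + 1) of each member as deposited, with its 95% limma interval, and under 3 other scalings as open symbols; the dashed line is the median of all tested genes, −0.23. Klf4 and Klf2 lie far left of that line under each scaling, while Klf6, Klf9 and Klf16 lie at 0 as deposited and right of it with median-ratio scaling and quantile normalization.

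In the acetyltransferase-binding group Klf2, Klf4 and Klf7 fell and Klf6 did not pass the test. Klf4 (chromosome 4, 55527143 to 55532466), a pluripotency factor that IL-4 induces in macrophages, had 6.71, 5.76 and 5.97 FPKM with BMH-21, against 28.2, 29.1 and 29.3 FPKM with DMSO. All 3 BMH-21 libraries were far below all 3 DMSO libraries. The change was −2.07 ± 0.05 (SE, limma adjusted p = 1.42e-09), a mean 4.70-fold lower, and it was −2.09 with DMSO replicate 3 alone and −1.79 with median-ratio scaling. These values rest on 384, 396 and 379 reads with BMH-21 and 2067, 1918 and 2024 reads with DMSO.

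Klf2 (chromosome 8, 72319033 to 72321656), known for keeping T cells and endothelium quiescent, had 2.85, 2.45 and 2.47 FPKM with BMH-21, against 8.59, 8.04 and 8.21 FPKM with DMSO. The groups again did not overlap. The change was −1.37 ± 0.06 (SE, limma adjusted p = 1.94e-08), a mean 3.19-fold lower, and −1.13 with median-ratio scaling. Klf7 (chromosome 1, 64029447 to 64122282), best known from axon growth, had 3.37, 3.25 and 3.15 FPKM with BMH-21, against 4.34, 4.69 and 4.41 FPKM with DMSO. This smaller gap gave a change of −0.36 ± 0.05 (SE, limma adjusted p = 9.13e-05). It was −0.13 with median-ratio scaling and −0.04 with quantile normalization (limma adjusted p = 0.428). Exons of Klf7 overlap Gm13748 and Gm26649 on the other strand, so reads of these genes cannot be told apart either.

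Klf6 (chromosome 13, 5861482 to 5870394), a widely expressed member that responds early to stimuli, had 23.8, 25.8 and 24.4 FPKM with BMH-21, against 25.6, 25.9 and 24.1 FPKM with DMSO. The groups overlapped. The difference was −0.03 with a 95% interval of −0.13 to 0.07 (limma adjusted p = 0.573), so a fall of the size seen in Klf2 or Klf4 lay outside it. With median-ratio scaling the value turned to 0.26 (limma adjusted p = 0.00123). The whole group summed to 36.7, 37.2 and 36.03 FPKM with BMH-21 and 66.6, 67.8 and 66.1 FPKM with DMSO.

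The CtBP-binding member was Klf3. Klf3 (chromosome 5, 64803388 to 64832901), a repressor known from red cell and B cell development, had 1.32, 1.27 and 1.197 FPKM with BMH-21, against 1.66, 2.12 and 1.95 FPKM with DMSO. The DMSO libraries spread widely but none reached the BMH-21 range. The change was −0.36 ± 0.07 (SE, limma adjusted p = 0.000816), −0.18 with median-ratio scaling and −0.10 with quantile normalization (limma adjusted p = 0.169). An exon of Klf3 overlaps Gm20033 on the other strand, which is also in the table, and the kit is not stated to mark strand, so reads of the pair cannot be told apart.

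Among the Sin3-binding members, Klf10, Klf11 and Klf13 fell and Klf9 and Klf16 did not pass. Klf13 (chromosome 7, 63886351 to 63938915), which activates Ccl5 in T cells, had 8.30, 8.53 and 8.08 FPKM with BMH-21, against 16.6, 16.2 and 14.6 FPKM with DMSO. The groups were well apart. The change was −0.85 ± 0.05 (SE, limma adjusted p = 2.66e-07) and −0.58 with median-ratio scaling. Klf10 (chromosome 15, 38291463 to 38300706), an early gene of TGF-β signalling, had 1.76, 1.86 and 1.87 FPKM with BMH-21, against 3.26, 3.70 and 3.52 FPKM with DMSO. Its change was −0.67 ± 0.06 (SE, limma adjusted p = 2.32e-06), and −0.35 with quantile normalization (limma adjusted p = 0.000252). The groups did not overlap.

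Klf11 (chromosome 12, 24651274 to 24662789), the other TGF-β-inducible early gene, was the lowest member, with 0.368, 0.459 and 0.377 FPKM in the BMH-21 libraries and 1.29, 1.62 and 1.65 FPKM in the DMSO libraries. The groups did not overlap. Its change was −0.84 ± 0.07 (SE, limma adjusted p = 2.59e-06), but the added 1 FPKM damps a gene this low: with a pseudocount of 0.1 the change was −1.69, against −1.64 for Klf2, and the mean was 3.79-fold lower. The order of Klf2 and Klf11 by size of fall thus turns with the pseudocount. Klf11 rests on 30, 45 and 34 reads with BMH-21 and 135, 152 and 162 with DMSO. The exact Poisson 95% intervals, which cover counting error only, reach at most 60.2 reads with BMH-21 and begin at 113 or more with DMSO.

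Klf9 (chromosome 19, 23141226 to 23168134), a target of the glucocorticoid and thyroid hormone receptors, had 12.8, 12.3 and 13.5 FPKM with BMH-21, against 12.6, 12.9 and 12.04 FPKM with DMSO. The difference was 0.04 with a 95% interval of −0.07 to 0.14 (limma adjusted p = 0.513). Klf16 (chromosome 10, 80567124 to 80577321), a short repressor that binds GC-rich sites, had 17.7, 19.0 and 18.5 FPKM with BMH-21, against 18.4, 19.5 and 19.9 FPKM with DMSO. Its difference was −0.06 with an interval of −0.17 to 0.04 (limma adjusted p = 0.228). Both genes overlapped between groups, and with median-ratio scaling they stood at 0.31 and 0.22 and were called higher.

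The order of levels among the 10 members changed with the treatment, as the plot of ordered levels shows. With BMH-21 the 3 highest members were Klf6 at 24.7 ± 1.01, Klf16 at 18.4 ± 0.633 and Klf9 at 12.9 ± 0.606 FPKM. With DMSO they were Klf4 at 28.9 ± 0.627, Klf6 at 25.2 ± 0.959 and Klf16 at 19.3 ± 0.794 FPKM (SD, n = 3 each). Klf4 was in place 5 with BMH-21 and place 1 with DMSO, and Klf2 was in place 7 with BMH-21 and place 6 with DMSO. Within each group the library ranges of neighbours in this order did not overlap, although Klf3 and Klf11 with DMSO came close, at 1.66 to 2.12 and 1.29 to 1.65 FPKM. An order between genes also depends on the exon length by which each FPKM was divided. All annotated exons of Klf3 cover 11243 bases and its longest complete coding transcript 5221, and its reads were not recovered, so its place is less sure. The 10 members summed to 79.0, 80.6 and 79.6 FPKM with BMH-21 and 120, 124 and 120 FPKM with DMSO. Klf4 made up 7.72% ± 0.7 of that sum with BMH-21 and 23.8% ± 0.61 with DMSO, and Klf6 made up 31.0% ± 0.94 with BMH-21 and 20.8% ± 0.56 with DMSO (SD, n = 3 each).

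**Figure D3:**
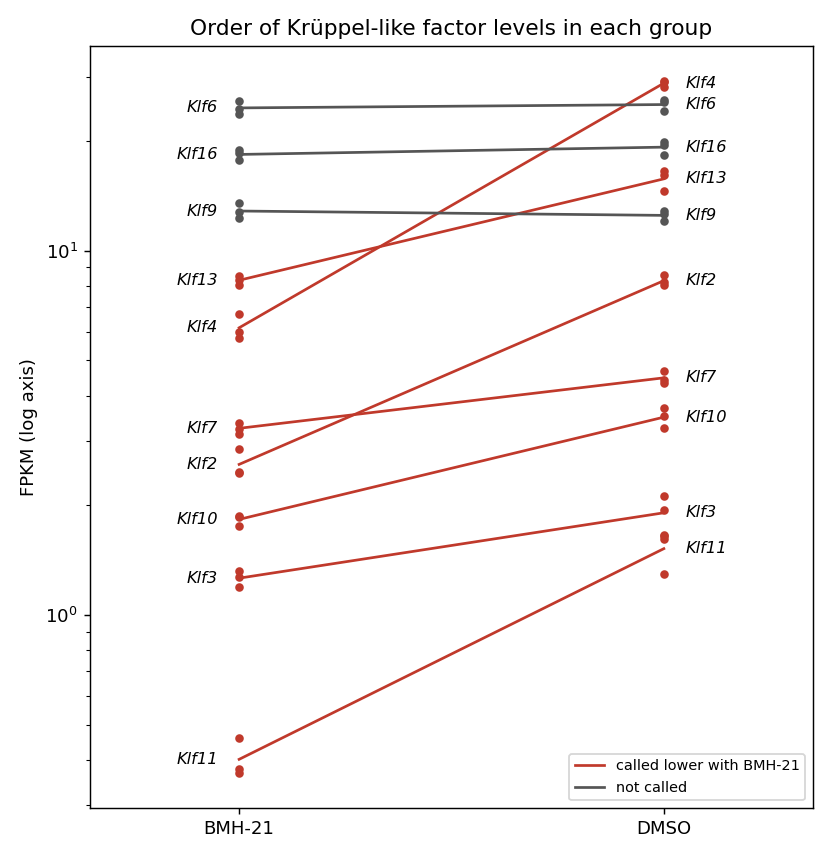
Level of each member on a log FPKM axis with BMH-21 (left) and DMSO (right), points for single libraries and lines between group means, red for members called lower. Klf4 is the highest member with DMSO, at 28.9 FPKM, and the fifth with BMH-21, at 6.15 FPKM, while the grey lines of Klf6, Klf16 and Klf9 are nearly level.

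Replicates of each member were close together. The coefficient of variation between the 3 libraries was 2.7% to 8.8% with BMH-21 and 2.2% to 12.3% with DMSO in members other than Klf11, where it was 12.6% with BMH-21 and 13.1% with DMSO. In structure, most members had long 3′ tails and GC-rich coding sequence. In the longest complete coding transcript of each, the untranslated 3′ part was longer than the 1088-base median of tested genes in 8 of 10, the exceptions being Klf2 at 737 and Klf4 at 982 bases. All 10 held the pentamer ATTTA there at least once, as did 68.4% of tested genes. Klf7 held it 18 times and Klf2 and Klf4 once each, and the median was 4 in the members and 1 in tested genes. The coding GC content was above the tested-gene median of 52.8% in 9 of 10 members, reaching 71.5% in Klf13, 71.0% in Klf16 and 70.7% in Klf2.

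Apart from Klf8, the other family members were scarce. Klf8 averaged 1.55 FPKM with BMH-21, above Klf3 at 1.26 FPKM. With DMSO it averaged 1.16 FPKM, below Klf11 at 1.52 FPKM. Of 7 further Krüppel-like factor genes listed, 5 were in the table and only Klf8 passed the filter. Klf8, which like KLF3 recruits CtBP, had 1.52, 1.43 and 1.71 FPKM with BMH-21, against 1.07, 1.33 and 1.07 FPKM with DMSO, a change of 0.24 (limma adjusted p = 0.00944). It was the only family member called higher as deposited. It was also higher under the 4 other scalings, at 0.17 to 0.53. Klf1, the erythroid factor, averaged 0.229 FPKM with BMH-21 and 0.563 FPKM with DMSO and was not tested. Klf5, an epithelial member, had 20, 25 and 12 reads in the BMH-21 libraries, against 0, 0 and 25 in DMSO replicates 1, 2 and 3, the same 4 libraries that held Krt8 and Krt18. Klf12 and Klf15 had 0 to 2 reads in each library.

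The SP factors, the closest relatives, bind the same GC-rich letters. Sp1, Sp2 and Sp3 were the only ones of 8 in the table that passed the filter. All 3 fell, as did 58.4% of all tested genes. Sp3 had 5.88, 5.91 and 5.46 FPKM with BMH-21, against 9.12, 9.31 and 9.80 FPKM with DMSO, a change of −0.63 (limma adjusted p = 1.45e-06). Sp1, the founding member, had 1.70, 1.74 and 1.68 FPKM with BMH-21, against 2.80, 2.71 and 2.97 FPKM with DMSO, a change of −0.50. Sp2, which averaged 5.799 FPKM with BMH-21 and 7.69 FPKM with DMSO, was no longer called with median-ratio scaling (−0.10) or quantile normalization (−0.07). Sp4 averaged 0.340 FPKM with BMH-21 and 0.524 FPKM with DMSO, and Sp6, Sp7, Sp8 and Sp9 stayed below 0.11 FPKM in every library.

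Most genes of the partners that the family recruits were called lower, as were 58.4% of all tested genes. Of 17 corepressor genes, 15 fell and 1 rose (median −0.53). The 1 rise was lost on leaving out replicate 1 of either group or the third BMH-21 library. It was also lost without the filter and with equal column totals (0.05), and was 0.08 against DMSO replicate 3 alone. Of the 17 genes, 11 were lower and 3 higher under median-ratio scaling, against 35.3% lower and 38.2% higher among all genes. The histone deacetylase gene Hdac2 averaged 6.37 ± 0.250 FPKM with BMH-21 and 15.1 ± 0.604 FPKM with DMSO, a change of −1.13, and Hdac1 averaged 6.33 ± 0.278 FPKM with BMH-21 and 12.6 ± 0.387 FPKM with DMSO, a change of −0.89. Sap30, a subunit of the Sin3 complex, averaged 90.7 FPKM with BMH-21 and 149 FPKM with DMSO. Of 10 coactivator genes, 7 fell and none rose, near the share of all genes, with a median of −0.28 against −0.23 for all genes. Under median-ratio scaling 4 were lower and 2 higher. The acetyltransferase gene Kat2a averaged 14.1 FPKM with BMH-21 and 28.4 FPKM with DMSO, and Ep300, which encodes p300, averaged 1.69 FPKM with BMH-21 and 2.47 FPKM with DMSO.

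Of 9 tested ubiquitin ligases and proteases known to act on Krüppel-like or similar factors, 6 fell and 1 rose (median −0.45). Under median-ratio scaling 5 were lower and 3 higher, and with equal column totals 8 and none. The gene that rose had a change of 0.19 as deposited and 0.16 against DMSO replicate 3 alone. Among all tested genes 58.4% were lower and 19.9% higher, under median-ratio scaling 35.3% and 38.2%, and with equal column totals 67.9% and 14.2%. The deubiquitinase gene Usp10 averaged 2.80 FPKM with BMH-21 and 5.71 FPKM with DMSO. Of 9 tested genes of the ERK5 and MEF2 route, which induces Klf2 and Klf4 in endothelium, and of the CCM complex that restrains it, 8 fell and none rose (median −0.25), close to the median of all genes. Under median-ratio scaling none was called lower and 2 higher, under upper-quartile scaling none and 2, and under quantile normalization none and 3. Of all tested genes, upper-quartile scaling called 39.8% lower and 34.4% higher, and quantile normalization 35.9% and 36.1%. Lower calls numbered 5 without DMSO replicate 3 or with that library alone. Mapk7, which encodes ERK5, had 8.32, 8.58 and 9.15 FPKM with BMH-21, against 11.6, 10.8 and 10.9 FPKM with DMSO. Map3k2, named here only for the filter on low values, was among the 8 and passed it through its DMSO libraries alone.

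Of 7 tested genes of the IL-4 receptor and STAT6 route, 6 fell and none rose (median −0.44). Under median-ratio scaling 4 were lower and 1 higher. These counts, and those of the TGF-β and glucocorticoid routes below, stand beside 58.4% lower and 19.9% higher among all tested genes. Under median-ratio scaling those shares were 35.3% and 38.2%. Tyk2, a Janus kinase gene, averaged 5.50 ± 0.388 FPKM with BMH-21 and 14.2 ± 0.186 FPKM with DMSO, a change of −1.23 (limma adjusted p = 1.99e-08). Stat6 averaged 8.89 FPKM with BMH-21 and 10.9 FPKM with DMSO, a change of −0.27 that was −0.005 with median-ratio scaling. Il4ra, the receptor chain gene, named after its values were seen, averaged 0.127 FPKM with BMH-21 and 0.343 FPKM with DMSO and was not tested. Of 7 tested TGF-β genes, 4 fell and 1 rose (median −0.19), with 1 lower and 3 higher under median-ratio scaling. The receptor gene Tgfbr2 was the one that rose, at 43.4 ± 0.918 FPKM with BMH-21 and 36.2 ± 0.853 FPKM with DMSO. Of 6 tested genes of the glucocorticoid receptor route, which induces Klf9, 5 fell and none rose (median −0.64), with 4 lower and 1 higher under median-ratio scaling. The receptor target Tsc22d3 averaged 7.13 FPKM with BMH-21 and 12.8 FPKM with DMSO and Fkbp5 2.35 FPKM with BMH-21 and 5.22 FPKM with DMSO.

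Klf2, Klf4, Klf6 and Klf10 are early response genes in many cells. Of 18 other tested immediate early genes, 15 rose and 2 fell (median 0.38), against 19.9% higher and 58.4% lower among all genes. Under median-ratio scaling 16 rose and 1 fell, against 38.2% and 35.3% of all genes. Against DMSO replicate 3 alone 15 rose and 1 fell. The AP-1 gene Fos had 16.1, 15.3 and 14.8 FPKM with BMH-21, against 5.01, 3.93 and 4.51 FPKM with DMSO, a change of 1.58 (limma adjusted p = 2.75e-08). Fosl1, another AP-1 gene, averaged 3.07 FPKM with BMH-21 and 0.554 FPKM with DMSO and passed the filter through its BMH-21 libraries alone. The stress factor gene Atf3 averaged 204 FPKM with BMH-21 and 123 FPKM with DMSO. Ier2, another early response gene, fell, at 22.3 ± 0.936 FPKM with BMH-21 and 39.1 ± 0.930 FPKM with DMSO, a change of −0.79. The plot of related gene lists sets these groups beside the Krüppel-like factors.

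**Figure D4:**
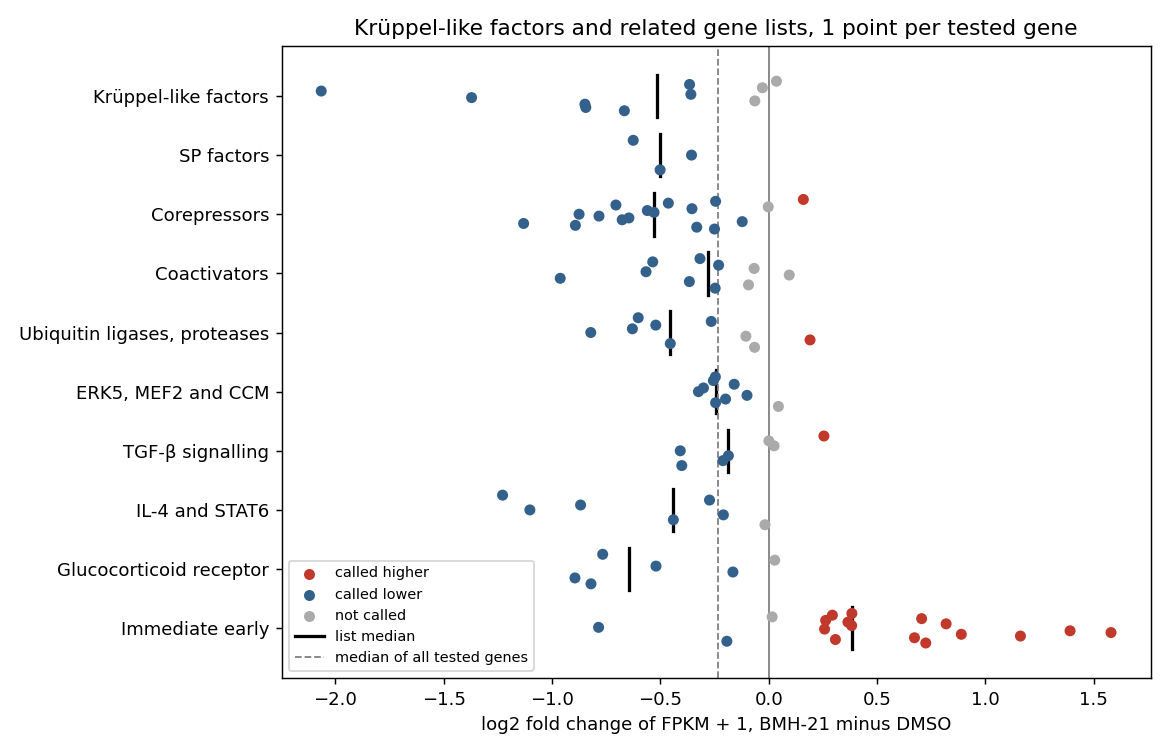
log2 fold change (BMH-21 minus DMSO, FPKM + 1) of each tested gene, 1 point a gene, by list, with red for called higher, blue for called lower, grey for not called, black bars for list medians and a dashed line at the all-gene median, −0.23. The Krüppel-like factors have a median of −0.52 and reach −2.07, and the immediate early genes have a median of 0.38.

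Of 16 genes listed as reported Krüppel-like factor targets in various cells, 10 were tested, and 4 fell and 2 rose (median −0.09). These counts stand beside 58.4% lower and 19.9% higher among all tested genes. Under median-ratio scaling 3 were lower and 5 higher, against 35.3% and 38.2% of all genes. Arg1 was among the genes that fell and passed the filter on low values through its DMSO libraries alone. S1pr1, the lymphocyte egress receptor gene that KLF2 activates in T cells, had 5.38, 5.16 and 6.09 FPKM with BMH-21, against 16.7, 17.0 and 16.7 FPKM with DMSO, a change of −1.45 (limma adjusted p = 1.1e-08). Its groups did not overlap and it was −1.18 with median-ratio scaling. Cdkn1a, the p21 gene that KLF4 and KLF6 can activate and that p53 also activates, averaged 250 ± 3.15 FPKM with BMH-21 and 119 ± 3.97 FPKM with DMSO. Lgals3, the galectin-3 gene that KLF3 represses in mouse cells, averaged 2786 ± 191 FPKM with BMH-21 and 2019 ± 208 FPKM with DMSO. Its change was 0.47, with 0.76 under median-ratio scaling and 0.35 with equal column totals. Quantile normalization gave 0.00, which it gives by construction to a gene of the same rank in every library, so that value cannot decide. Txnrd2, a thioredoxin reductase gene that KLF9 represses, averaged 4.68 FPKM with BMH-21 and 6.79 FPKM with DMSO.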

How the data were processed

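RNA from polysome fractions was sequenced in 3 BMH-21 and 3 DMSO libraries. The tools were HISAT2, SAMtools and Trimmomatic 0.38 with build mm10, per the submitters' processing notes; which program counted reads, and on what annotation, is not given in the sources used here. The deposited values were read as FPKM from the values themselves, since the unit is not named.

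The 9748 genes that reached 1 FPKM in 3 or more libraries entered the fit on log2(FPKM + 1), and limma 3.58.1 in R 4.3.3 was fitted across all of them with an intensity trend and Benjamini-Hochberg adjustment at 0.05. The fit was tested on simulated data with balanced changes in few genes, so that test does not bear on the scaling. Fold changes are BMH-21 minus DMSO and are understated in low genes. The exact permutation test of 1 gene cannot give a p below 0.10 with 3 against 3 libraries, and p-values measure the spread between these libraries only.

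Reads were recovered as FPKM times exon length (GENCODE M21, GRCm38) times depth. Of genes under 5000 reads, 78.7% came out within 0.02 reads of a whole number (plus 1e-05 of the value) in all 6 libraries. Among tested genes with an exon length 71.0% did, and so did 9 of 10 members, Klf3 being the exception. A limma-voom fit on these reads was added as an alternative after seeing the data, as was DMSO replicate 3 alone.

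The 10 members and the gene lists were chosen with earlier results of these data known. Named genes were all members, the further family and SP genes, and from each other list no more than 5 called genes, those of smallest p among genes averaging 1 FPKM or more. Alternatives covered scaling, pseudocount, filter, trend, replicate block and leaving out each library.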

Additional observations from a re-analysis of the deposited data

How the results depend on the processing

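Of 159 member values under 16 alternatives, 144 kept their direction and their side of the threshold, including all 60 with 1 library left out. Klf6 turned higher with median-ratio (0.26), upper-quartile (0.20) and quantile scaling (0.17), and Klf16 likewise (0.22, 0.16 and 0.16). Klf9 became a call at 0.31, 0.26 and 0.27. Without becoming calls, Klf9 changed sign with equal column totals (−0.077) and Klf6 against DMSO replicate 3 alone (0.031). With equal column totals Klf6 (−0.15) and Klf16 (−0.18) were called lower. With quantile normalization Klf3 (−0.10) and Klf7 (−0.041) lost their calls. Hence 3 members were called higher with median-ratio, 3 with upper-quartile and 3 with quantile scaling. By construction each scaling moves the median of all genes, and the members with it.

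Over all genes, calls were 3724 higher and 3442 lower with median-ratio scaling, 3349 higher with upper-quartile scaling (3883 lower), and 3517 higher and 3498 lower with quantile normalization. The limma-voom fit on recovered reads, which covered 6835 genes, called 1257 higher and 4232 lower, and 6 members lower, Klf3 not being among those genes. With 1 library left out, calls ranged from 1816 to 1876 higher and 5450 to 5597 lower. With the replicate number as a block, 1894 genes were higher and 5608 lower, and the calls of all 10 members were as without it. Same-numbered libraries did not deviate together (correlations −0.11, −0.09 and −0.06), so the number is not taken as a pairing. Depth limits Klf11 most, at 30 to 45 reads in the BMH-21 libraries.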
